A study of Mus musculus with 6 samples.

Results

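Lymphocyte and leukocyte marker genes were examined in the ATAC-seq peak lists of mouse intestinal crypts. The set was chosen by name and holds 9 of 21938 protein-coding genes: Ptprc, Cd3e, Cd3g, Cd8a, Cd2, Lck, Itgae, Csf1r and Spi1. A peak was given to a gene when its summit lay in the gene body or within 10 kb of either end. The question was how much of an immune cell signal each crypt preparation held, and whether that signal followed genotype. ATAC-seq marks open chromatin by the cuts of a transposase, and each sample gave a peak list of its own. The 6 samples were crypts of 3 WT mice and of 3 Arid3a cKO mice, which carry VillinCre-ERT2 +/- and Arid3a fl/fl. Tamoxifen was injected on each of 3 days in a row into mice of both genotypes, and crypts were taken 1 month after the first injection. The Cre status of the WT mice is not given in the labels. The Villin promoter drives Cre in intestinal epithelial cells, so immune cells of the cKO mice are not the target of the deletion. The crypts were dissociated to single cells, and no sort against CD45 is described for the ATAC-seq arm.

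The 9 genes serve as markers of the immune cells that lie in and under the crypt epithelium. Intraepithelial lymphocytes, mostly T cells that carry CD8 and the integrin encoded by Itgae, sit between epithelial cells, and macrophages lie in the lamina propria beneath. Genes of one lineage are usually open at their promoters and enhancers in that lineage and closed elsewhere. In a bulk library a small share of immune cells adds few fragments, and fewer immune cells cannot be told apart from less open chromatin per immune cell.

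The lists held 40492 to 58297 peaks on the assembled chromosomes, and their background coverage, read from the peak columns, was 1.75 to 2.29 fragments per base. WT replicate 1 had the shortest list and cKO replicate 1 the longest. Arid3a had a promoter peak in 6 of 6 lists, which does not check the deletion, because the deleted exons are not located in the sources used here. Epithelial markers were the most often open of the lists examined, with a peak at a coding start site for 13 to 16 of 20 genes per sample.

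None of the 9 genes had a peak summit at the start site of a protein-coding transcript in any of the 6 lists. A promoter was taken as the stretch from 1000 bp upstream to 100 bp downstream of the transcription start site (TSS). Over all protein-coding genes, 48.5% to 51.5% had such a peak per list. Counting any base of a peak in that stretch in place of the summit, the 9 genes remained at 0 in every list, against 58.8% to 63.2% of all genes. The upstream sequence of 4 genes of the set follows, 250 bp up to the first base before the most 5′ coding TSS, on the strand of the gene, in GRCm38. Cd2 and Lck are shown because they alone had a peak at another annotated TSS, and Ptprc and Cd3e, chosen after their values were seen, because they mark all leukocytes and all T cells. Capitals mark the RUNX site TGTGGT and the ETS core GGAAGT on either strand. The Cd2 stretch (chr3:101287940-101288189) holds neither.
Cd2: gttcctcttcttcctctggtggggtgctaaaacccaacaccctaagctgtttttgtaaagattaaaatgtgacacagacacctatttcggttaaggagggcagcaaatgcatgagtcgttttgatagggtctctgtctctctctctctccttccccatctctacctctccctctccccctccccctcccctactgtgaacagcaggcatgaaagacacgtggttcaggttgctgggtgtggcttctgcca
Lck: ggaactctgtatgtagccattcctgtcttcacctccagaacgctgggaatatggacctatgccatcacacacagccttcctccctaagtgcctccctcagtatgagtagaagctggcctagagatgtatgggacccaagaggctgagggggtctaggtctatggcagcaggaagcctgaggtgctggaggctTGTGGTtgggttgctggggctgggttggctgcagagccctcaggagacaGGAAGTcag
Ptprc: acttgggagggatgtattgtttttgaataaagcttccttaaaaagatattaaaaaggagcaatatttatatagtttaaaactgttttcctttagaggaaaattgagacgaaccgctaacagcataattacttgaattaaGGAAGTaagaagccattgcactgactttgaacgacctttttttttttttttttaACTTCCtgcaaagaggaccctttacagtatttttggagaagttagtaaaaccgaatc
Cd3e: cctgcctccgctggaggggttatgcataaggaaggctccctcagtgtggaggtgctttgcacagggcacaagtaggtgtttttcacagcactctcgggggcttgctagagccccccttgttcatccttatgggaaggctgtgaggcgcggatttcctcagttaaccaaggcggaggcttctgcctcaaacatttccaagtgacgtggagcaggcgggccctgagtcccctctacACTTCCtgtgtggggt
The Lck stretch (chr4:129573642-129573891) holds 1 RUNX site and 1 ETS core, the Ptprc stretch (chr1:138175307-138175556) 2 ETS cores and the Cd3e stretch (chr9:45009614-45009863) 1 ETS core. The RUNX site was found in 12.8% and the ETS core in 20.04% of the same 250 bp stretch of all 21938 genes, so the letters are common. The longer ETS site CCGGAAGT and the PU.1 site GAGGAAGT, which both contain the ETS core, were in none of the 4 stretches.

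With every annotated TSS counted, 2 of the 9 genes had a promoter peak: Lck in 6 of 6 lists and Cd2 in 5 of 6. Both peaks lie at the start of retained-intron transcripts inside the gene. The number of genes with such a call was 1, 2 and 2 in WT replicates 1 to 3 and 2, 2 and 2 in the cKO replicates. The same call was made for 52.0% to 55.2% of all genes per list. None of the 9 genes had a promoter peak in 3 of 3 samples of one genotype and 0 of 3 of the other, a call made for 0.119% of all genes toward cKO and for 0.146% toward WT.

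The T cell receptor genes and the pan-leukocyte gene had almost no peak of their own. Cd3e, which encodes a signalling chain of the T cell receptor complex, and Cd8a, the coreceptor of cytotoxic T cells, had 0 peaks in the window in all 6 lists. Ptprc encodes CD45, the phosphatase on the surface of leukocytes, and had 1 peak in WT replicate 1 and 0 in the other 5 lists. That peak lies in an intron (chr1:138136226-138136515) with a fold enrichment over the local background of 4.18 and a pileup of 12 fragments at the summit. Cd3g encodes another chain of the receptor complex, and its window held 1, 1 and 1 peaks in WT and 1, 3 and 1 in cKO. None of the 3 regions in the Cd3g window lay nearest the TSS of Cd3g. The region called in 6 of 6 lists (chr9:44965028-44966114) has its summit 6 bp from the TSS of Ube4a. Its fold was 9.47, 12.9 and 12.1 in WT and 12.9, 10.7 and 10.4 in cKO. The 2 further regions were called in cKO replicate 2 alone and lay nearest Ube4a and Cd3d. The windows of Cd3e and Cd3g share 1692 bp, and no peak lay in the shared stretch.

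**Figure D1:**
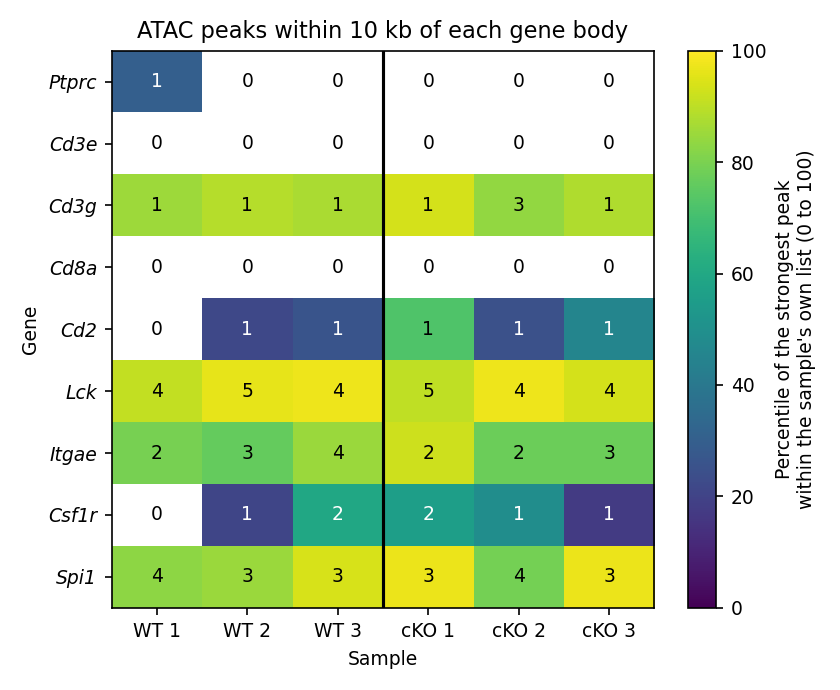
Number of peaks (printed) and percentile of the strongest peak within the sample's own list (color, 0 to 100; white, no peak) for each gene (rows) and sample (columns), with WT left and cKO right of the line. Cd3e and Cd8a are at 0 in all 6 samples, and Lck and Spi1 have 3 to 5 peaks in every sample.

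Cd2 encodes an adhesion receptor of T and NK cells, and its window held 1 region (chr3:101280278-101281306), in an intron 7144 bp inside the gene. It was called in 5 of 6 lists, with a fold of 4.24 and 4.34 in WT replicates 2 and 3 and of 8.67, 4.29 and 5.66 in the cKO replicates. The pileup at the summit was 13 and 14 fragments in WT and 30, 14 and 17 in cKO. WT replicate 1, which gave no call, is the shortest list, and cKO replicate 1 stands above the other calls, so the genotypes overlap. When every list was shortened to the 40492 peaks with the largest −log10 q, the calls of WT replicates 2 and 3 were lost and Cd2 had 0, 0 and 0 peaks in WT and 1, 1 and 1 in cKO. In the shortened lists Cd2 was the only one of the 7 genes of the set with a peak whose peak numbers did not overlap between genotypes. Among the 16604 protein-coding genes with a window peak in at least 1 shortened list, that call was made for 0.927% with cKO higher and 0.964% with WT higher.

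Lck, the kinase that starts signalling from the T cell receptor, had 4, 5 and 4 peaks in WT and 5, 4 and 4 in cKO. These fall in 6 regions, of which 4 lie nearest an Lck TSS. Region 2 (chr4:129555344-129557289) has its summit in coding sequence, 1975 bp downstream of the nearest coding TSS. Its fold was 5.95, 6.32 and 7.98 in WT and 6.78, 6.44 and 9.04 in cKO, and its pileup was 31, 36 and 61 fragments in WT and 70, 33 and 85 in cKO. Region 3 (chr4:129563532-129564305) is intronic, and its fold was 3.53, 8.15 and 6.92 in WT and 6.92, 4.43 and 6.29 in cKO. In both regions the ranges of the genotypes overlap. The strongest peak of the Lck window belongs to Hdac1, a deacetylase gene that nearly all cells use, and its fold was 10.7 to 16.5 across the 6 lists.

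Spi1 encodes PU.1, the ETS factor that directs myeloid and B cell fates, and its window held 4, 3 and 3 peaks in WT and 3, 4 and 3 in cKO. Region 4 (chr2:91100664-91101853) is intronic, 4836 bp downstream of a coding TSS, and was called in 6 of 6 lists. Its fold was 4.54, 9.57 and 9.13 in WT and 8.72, 6.15 and 9.05 in cKO, with pileups of 20, 45 and 46 fragments in WT and 52, 26 and 46 in cKO. The lowest value was in WT replicate 1 and the next in cKO replicate 2, the shortest lists, and the genotypes overlap. Region 1 (chr2:91078165-91079119) lies 3794 bp before the 5′ end, and its fold was 5.27, 7.36 and 9.18 in WT and 8.59, 6.23 and 6.41 in cKO. The strongest peak in the Spi1 window lies in its last exon, nearest the TSS of Mybpc3, with a fold of 9.06 to 14.5.

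For 3 regions nearest the gene's own TSS, the only one of Cd2 and 1 of 2 called in 6 of 6 lists for Lck and for Spi1, the 201 bp around the summit are given from the forward strand of GRCm38, to show the sequence that was open. The Cd2 stretch (chr3:101280695-101280895), the Lck stretch of region 2 (chr4:129556297-129556497) and the Spi1 stretch of region 4 (chr2:91101516-91101716) held no RUNX, PU.1, ETS or ETS core site, and so hold no capitals.
Cd2 region 1: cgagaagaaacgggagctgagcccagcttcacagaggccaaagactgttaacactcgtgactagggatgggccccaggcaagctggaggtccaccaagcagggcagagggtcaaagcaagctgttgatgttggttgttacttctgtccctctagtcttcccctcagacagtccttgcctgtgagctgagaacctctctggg
Lck region 2: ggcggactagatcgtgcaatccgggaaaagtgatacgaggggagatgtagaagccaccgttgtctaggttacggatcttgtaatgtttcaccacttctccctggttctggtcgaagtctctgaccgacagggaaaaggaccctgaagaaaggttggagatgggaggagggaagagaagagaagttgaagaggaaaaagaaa
Spi1 region 4: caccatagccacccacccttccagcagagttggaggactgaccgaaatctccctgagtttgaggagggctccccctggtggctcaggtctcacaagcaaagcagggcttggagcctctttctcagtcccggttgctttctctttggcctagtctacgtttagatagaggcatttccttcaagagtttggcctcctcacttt
Of these 3 stretches, that of Lck region 2 holds 8 CpG and those of Cd2 and Spi1 hold 3 each.

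Itgae encodes the αE integrin that binds E-cadherin and holds lymphocytes in the epithelium. Its window held 2, 3 and 4 peaks in WT and 2, 2 and 3 in cKO (exact two-sided permutation test, n = 3 per genotype, p = 0.7, where the smallest p the design allows is 0.1). The region called in 6 of 6 lists (chr11:73136756-73138649) lies 37 bp from the TSS of Haspin, a kinase gene inside an Itgae intron, and its fold was 8.47 to 12.5. Of the 4 regions nearest an Itgae TSS, 3 were called in a single list each. The other, 5873 bp before the 5′ end and inside an exon of Ncbp3, was called in WT replicate 3 with a fold of 4.04 and in the 3 cKO lists with folds of 5.52, 3.89 and 5.45.

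Csf1r encodes the receptor that macrophages need for survival. Its window held 0, 1 and 2 peaks in WT and 2, 1 and 1 in cKO. A region 3982 bp before the 5′ end was called in 4 of 6 lists, with a fold of 4.18 and 7.08 in WT replicates 2 and 3 and of 6.78 and 5.81 in cKO replicates 1 and 2. A second region, intronic and nearest the TSS of Hmgxb3, was called in 3 of 6 lists with folds of 3.90 to 5.34. The calls are absent from WT replicate 1 and reach the same range in both genotypes.

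**Figure D2:**
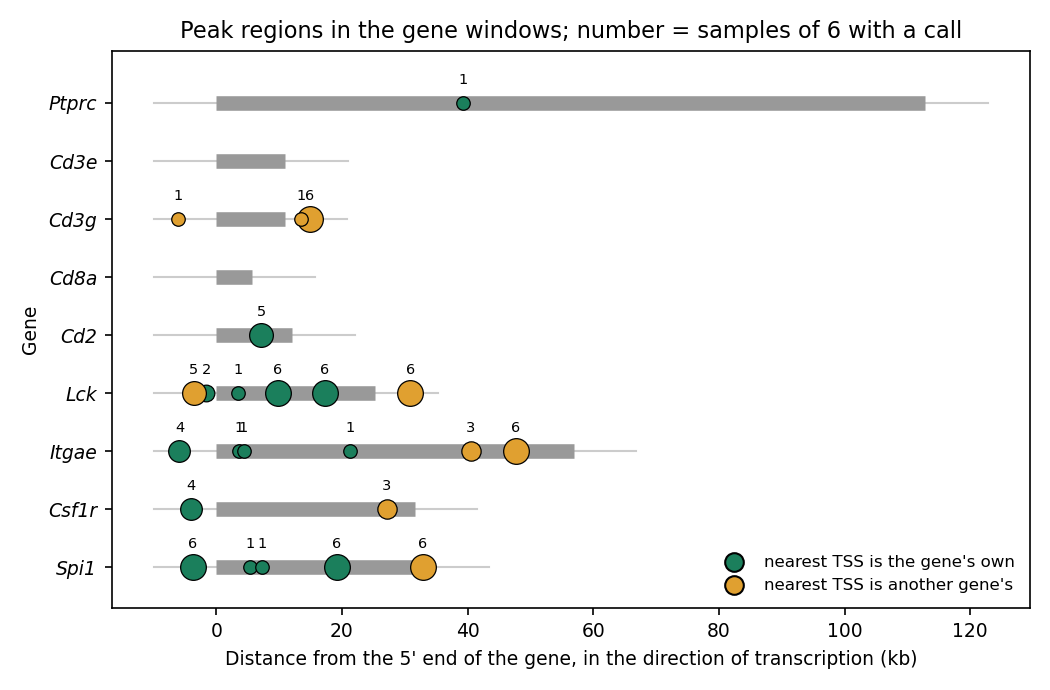
Position of the 24 regions along each gene, in kb from the 5′ end (grey bar, gene body; thin line, window), with the number of samples of 6 that called the region above each point. Green points lie nearest a TSS of the gene itself and yellow points nearest that of another gene. The points called in 6 samples are 4 green and 4 yellow.

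Over the 9 windows, which cover 477.773 kb, the lists merged to 24 regions. Of these, 8 were called in 6 of 6 lists, 2 in 5, 5 in 2 to 4 and 9 in 1. Over the whole genome 45.9% of 71286 regions were called in 6 lists and 20.9% in 1, against 33.3% and 37.5% of the 24. Of the 24 regions, 15 lay nearest a TSS of the gene itself and 9 nearest that of another gene. The median fold of a region was 4.18 for the 15 and 5.02 for the 9, against 5.04 for all regions. None of the 24 was called in 3 of 3 lists of one genotype and 0 of 3 of the other, a call made for 0.464% of all regions toward cKO and 0.111% toward WT, so a count of 0 among 24 is near that background.

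**Figure D3:**
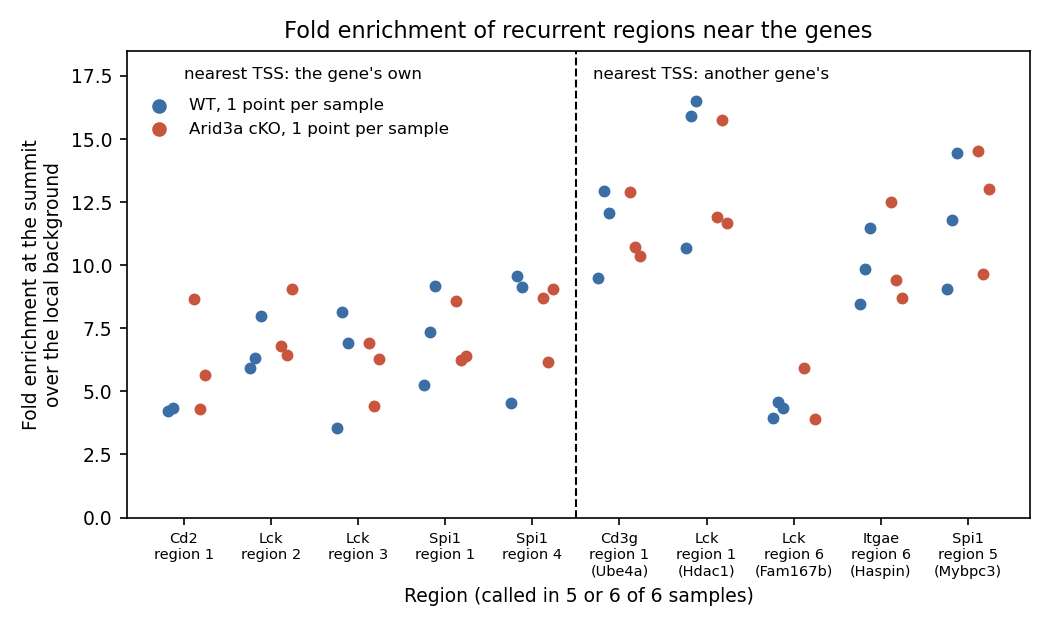
Fold enrichment at the summit (linear axis from 0) in each of the 3 WT and 3 cKO samples for the 10 regions called in 5 or 6 samples, with no point where a list had no call. Right of the dashed line, the gene in parentheses has the nearest TSS. WT and cKO points overlap in each region. The regions nearest the TSS of Hdac1, Ube4a, Haspin and Mybpc3 lie above most of those nearest a TSS of the set. The one nearest the Mybpc3 TSS lies 2851 bp from it, in an exon of Spi1.

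In the full lists, with every peak of the 10 kb windows counted, the values summed over the 9 genes differed between genotypes by less than the spread between replicates. This did not hold in lists of equal length, where the genes with a window peak averaged 4.67 in WT and 5.67 in cKO, those with a promoter peak 1.0 and 2.0, and the peaks 10.3 and 12.3. With −log10 q of at least 5, genes with a window peak averaged 4.33 and 5.33, those with a promoter peak 1.0 and 1.67, and peaks 9.0 and 11.0. The mean best within-list percentile was then 39.3 and 45.6. With 50 kb either side, genes with a window peak averaged 8.0 and 8.67 and peaks 38.7 and 41.0. These differences exceeded the SD between replicates of the full lists (0.408 for either number of genes, 1.29 for peaks and 5.12 for the percentile) and were not tested. With 2 kb either side the peaks averaged 8.67 in WT and 8.0 in cKO, a difference within that SD. The values that follow are from the full lists. The number of genes with a peak in the window was 5, 6 and 6 in WT and 6, 6 and 6 in cKO, and 72.1% to 76.2% of all genes had one. The windows held 13.7 ± 1.53 peaks in WT and 14.0 ± 1.0 in cKO (SD, n = 3). That is 2.86 peaks per 100 kb in WT and 2.93 in cKO, where the windows of all genes held 2.92 and 3.10. The mean over the 9 genes of the best within-list percentile, with 0 where no peak was called, was 44.7 ± 4.65 in WT and 49.4 ± 5.54 in cKO (SD, n = 3), against 58.9 and 59.3 over all genes. With peaks nearest another gene's TSS left out, it was 22.3 in WT and 27.7 in cKO. That difference of 5.45 is above the SD of 5.12 between replicates with all peaks counted, and was not tested.

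None of the 7 genes of the set with a peak had peak numbers that did not overlap between the genotypes. Among the 17141 protein-coding genes with a window peak in at least 1 list, that call was made for 0.852% with cKO higher and 0.379% with WT higher. None of the 7 had best percentiles that did not overlap either, where 4.14% of the same 17141 genes had them higher in cKO and 6.21% higher in WT. The exact two-sided permutation p for the number of peaks per gene, n = 3 per genotype, was 0.7 for Itgae and 1 for the other 8. A p that cannot go below 0.1 does not show that the genotypes are alike.

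Wider marker lists, which leave out the 9 genes, were counted in the same way. Genes with a peak at a coding TSS numbered 2 to 4 of 28 for T and NK cells, 2 to 3 of 12 for B cells, 1 to 3 of 20 for myeloid and mast cells and 6 to 8 of 20 for genes of all leukocytes. A list for lineages taken as absent from gut mucosa, which was not checked for each gene, had 5 to 6 of 20. The calls of single genes that follow count any annotated TSS. In the T and NK list, Bcl11b and Runx3, transcription factors of T cells, had a promoter peak in 6 of 6 lists. Cd27 had one in 2 of 3 WT and 3 of 3 cKO lists, and Eomes in 1 of 3 of each. In the B cell list, the transcription factors Pax5 and Ebf1 were called in 6 of 6 lists, Cd22 in 1 of 3 WT and 2 of 3 cKO lists and Cr2 in 1 of 3 WT lists. The calls of Cd27 and Cd22 were at no coding TSS. Of the myeloid list, Cd68, a lysosomal glycoprotein of macrophages, was called in 6 of 6, Cx3cr1 in 2 of 3 of each genotype and Aif1 in 2 of 3 WT and 0 of 3 cKO lists. The Cd68 peaks ranked low, at a mean within-list percentile of 10.4, from 1.89 to 24.6 over the 6 lists. In the pan-leukocyte list, 6 genes were called in 6 of 6 lists, among them Lcp1, Runx1, Ptpn6 and Ikzf3. No gene of these 4 lists was called in 3 of 3 lists of one genotype and 0 or 1 of 3 of the other, which 0.647% of all genes were toward cKO and 0.857% toward WT.

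**Figure D4:**
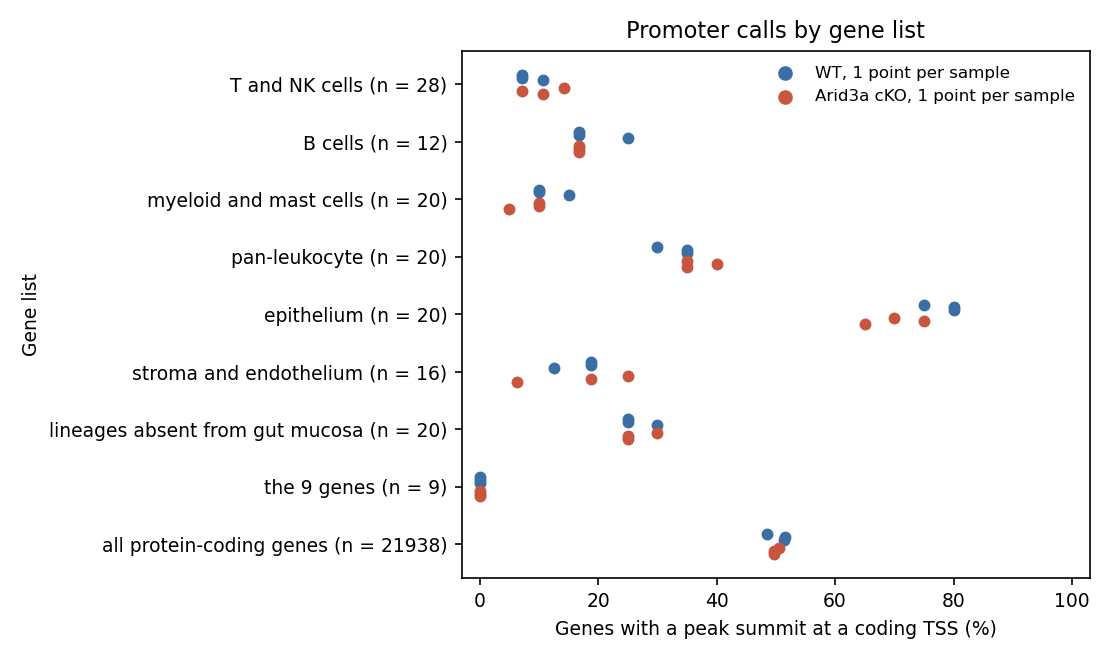
Share of genes in each list (rows, number of genes in brackets) with a peak summit at a coding TSS, in percent, with 1 point per sample for WT and cKO. The 9 genes are at 0 in all 6 samples, the 4 immune lists lie between 5% and 40%, and all genes at about 50%.

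Base composition separates the lists too. The CpG ratio sets the number of CpG against that expected from the G and C content, from 400 bp upstream to 100 bp downstream of a coding TSS. For a gene with several coding TSSs, the highest ratio was taken. The ratio was under 0.6 for all 9 genes, from 0.124 in Cd3g to 0.549 in Spi1. This split was chosen after the values were seen. Of 10577 genes under that limit, 72.9% had no coding promoter peak in any list, and of 11361 at or over it, 11.1%. Among genes under the limit, 22 of 23 T and NK, 9 of 11 B cell, 16 of 19 myeloid and mast cell and 11 of 16 pan-leukocyte genes had none, the last 68.8% and below the share of all genes. The same held for 12 of 13 stromal and endothelial genes and 12 of 15 genes of lineages taken as absent from gut mucosa. Of the epithelial markers under the limit 0 of 11 had none and 7 had one in all 6 lists. Of those at or over it 2 of 9 had none and 3 had one in all 6 lists. Of the immune genes named above as called in 6 of 6 lists, Bcl11b (0.799), Runx3 (0.885), Pax5 (0.908), Runx1 (0.860) and Ikzf3 (1.04) were over the limit. Ebf1 (0.526), Cd68 (0.223), Lcp1 (0.589) and Ptpn6 (0.392) were under it. Of all genes, 64.7% of those at or over the limit and 12.7% of those under it had a coding promoter peak in all 6 lists. What part base composition has in the result was not tested.

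RUNX and PU.1 sites, and the ETS site for comparison, were counted over whole lists, which does not use the 9 genes. A RUNX site within 100 bp of the summit lay in 12.3% ± 0.244 of the peaks of WT crypts and 12.4% ± 0.283 of those of cKO crypts (mean ± SD over n = 3 lists, exact two-sided permutation p = 0.8, adjusted over 3 motifs p = 0.8). A PU.1 site lay in 2.6% ± 0.204 and 2.53% ± 0.0745 (n = 3, exact permutation p = 0.7, adjusted p = 0.8). The ETS site was in 1.91% ± 0.185 and 1.71% ± 0.184 (n = 3, exact permutation p = 0.3, adjusted p = 0.8). In the 250 bp upstream stretches of all 21938 genes, a RUNX site lay in 12.8%, a PU.1 site in 2.34% and the ETS site in 3.37%. These stretches are longer than the 201 bp searched around a summit. The shares were not corrected for length, so they do not show whether peaks hold more or fewer sites. Whether the share of peaks with a site follows immune cell content was not tested. The RUNX and PU.1 differences were smaller than the SD of the WT lists, and the ETS difference of -0.197 percentage points was slightly larger than either SD. With the whole peak searched in place of 100 bp either side, a RUNX site lay in 34.7% of WT and 38.3% of cKO peaks (difference 3.57 points, n = 3, exact permutation p = 0.2). A longer peak has more room for a site, and the mean peak length was 724, 701 and 745 bp in WT and 825, 720 and 846 bp in cKO. The part of peak length in that difference was not tested.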

How the data were processed

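The 6 samples were grouped by their labels, 3 WT and 3 Arid3a cKO. The authors aligned reads to GRCm38 and called narrow peaks per sample with MACS2 through the nf-core ATAC-seq pipeline, removing blacklisted regions. Each list deposited by the authors holds a score, which is 10 times the −log10 q-value without decimals, a fold enrichment (ratio of pileup to background at the summit), and a −log10 p and −log10 q. Read counts were not analysed here, so no count model was used.

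Genes came from GENCODE M21 on GRCm38, and peaks on unplaced sequences and the mitochondrion were left out (61 to 92 per list). Percentiles of fold were taken within a list. Whole fragment pileups were recovered from fold and p for 100% of 2000 sampled peaks per list (−log10 p matched within 0.002), drawn from peaks with −log10 p under 100, which are 85.5% to 98.9% of a list. Peaks above that limit were not checked. Window and promoter calls were tested on simulated data. Upstream sequences were read from GRCm38.p6. The RefSeq promoter table held 5 of the 9 genes and was not printed. Among 15 pairs of lists, 0 were duplicates. The software was scipy 1.17.1, matplotlib 3.10.9, pandas 2.3.3 and numpy 2.4.6 in Python 3.11.15. The 9 genes, the marker lists and the motifs were chosen with earlier results of these data known. Named genes are all 9, with the region of each called in most samples, and up to 4 genes per immune list, taken in order of the number of samples with a promoter peak. Nothing says whether the replicates share a litter or a day, and the p-values take no account of either. A permutation p is the share of the 20 assignments of samples to genotype with a difference at least as large as the observed one.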

Additional observations from a re-analysis of the deposited data

How the results depend on the processing

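Each of the 8 results was recomputed under other settings, 93 values in all, of which 73 moved from the reported value by less than the spread between replicates, kept their direction (motif shares) or, for counts of genes, stayed within 1.5 times the reported count. The RUNX difference with the whole peak searched was 3.57 points (exact permutation p = 0.2). With −log10 q of at least 5, the difference (cKO minus WT) in genes with a window peak was 1.0 and in peaks 2.0. In lists of equal length (40492 peaks), these were 1.0 and 2.0, the difference in genes with a promoter peak was 1.0, the number of genes that did not overlap was 1, Cd2, and the RUNX difference was -0.128 percentage points (exact permutation p = 0.6). With 50 kb either side the difference in peaks was 2.33. The genes called in 1 genotype only, 58 over the genome, were 15 with the wider promoter and 19 with any overlap of a coding promoter, the last chosen after the data were seen. Leaving out 1 sample gave 123 to 182 of them, since 2 samples then make a call. Leaving out 1 sample moved the RUNX difference between -0.0850 and 0.186 and the PU.1 difference between -0.175 and 0.0244 points. The PU.1 difference with the whole peak searched was 0.496 (exact permutation p = 0.2). The cause of these changes was not tested. Best percentiles of 15479 genes, as deviations from the mean of the genotype, correlated at -0.399, -0.0828 and 0.151 between same-numbered samples. Between other-numbered samples they ran from -0.425 to 0.405. Same-numbered values lie inside that range, so the check does not show whether the numbers pair the samples. With the replicate block the RUNX difference was 0.0740 and the PU.1 difference -0.0617 (exact sign-flip p = 1.0 for each). Pairing leaves a difference of means as it was, and the smallest sign-flip p is 0.25, so no call could change. The replicate block values are counted among the 73 above, where their outcome was fixed in advance. Lists of peaks, without read counts, cannot show signal below the caller's threshold, and 8 to 9 fragments were the smallest pileup sampled.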
